A study of Mus musculus with 19 samples.

Results

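The immediate early genes are genes that a cell transcribes within minutes of a stimulus, without first making new protein. The 10 genes described here were Fos, Fosb, Fosl1, Jun, Junb, Egr1, Ier2, Ier3, Atf3 and Dusp1, chosen because they are induced by growth signals and by tissue dissociation, and each was found by its gene name on the array. They were 10 of 36994 genes named on the array and were read by 14 of its 56605 probes. All 10 passed the filter on dim probes (a probe well above background on at least 4 arrays), as did 20671 genes in all, and 13 of their 14 probes did.

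RNA came from luminal cells (LCs) of the mammary gland, sorted as CD24+CD29lo cells without CD31 or CD45 after enzymatic digestion of the tissue, from female C57Bl/6N mice. C451A-ERα mice carry a germline point mutation of the palmitoylation site of the estrogen receptor ERα, which removes the receptor from the membrane in every cell of the body and leaves its nuclear form. All mice were ovariectomized at 24 days of age, received 10 days later a pellet of 17β-estradiol (E2, 0.01 mg over 60 days) with or without progesterone (Pg, 1.5 mg over 60 days), and were treated for 21 days, to about 8 weeks of age. The groups were C451A-ERα E2+Pg (5 mice), C451A-ERα E2 (5 mice), wild-type (WT) E2+Pg (5 mice) and WT E2 (4 mice), with 1 one-colour array per mouse. The comparisons ask how membrane ERα and progesterone set the expression program of LCs.

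Growth factors, stress and calcium reach these genes through kinases such as ERK, which act on transcription factors already bound at their promoters, among them the serum response factor at CArG boxes and CREB at cyclic AMP response elements (CRE). Fos and Jun proteins pair into the AP-1 transcription factor, Egr1 and Atf3 are transcription factors themselves, and Dusp1 is a phosphatase that switches MAP kinases off. The transcripts are short-lived, and digestion of a tissue at body temperature is well known to induce them. A level in sorted LCs therefore reads the cells as they were lysed.

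The promoters of 7 of the 10 genes were matched in RefSeq (GRCm38.p6), and the 250 bases before the start were searched on both strands for the CArG box (by name), the CRE (TGACGTCA), the AP-1 site (TGANTCA) and the TATA box (TATAAA). Among all 32851 promoters of this length, 1.47% held a CArG box, 1.55% a CRE, 6.75% an AP-1 site and 12.4% a TATA box. Of the 7, Dusp1 held a CRE, 143 bases before its start, and Fos a TATA box, 33 bases before its start. No exact match was found for the other motifs or in the other 5 promoters. Sites farther upstream or with other letters were not searched for, so the genes are not shown to lack them. Egr1, Fosl1 and Ier2 had no promoter matched and were not searched. Both promoters with a match are shown with that of Ier3, the gene whose levels departed from those of Fos below, with capitals for the matched letters.
Fos, chr12:85473640-85473889, plus strand: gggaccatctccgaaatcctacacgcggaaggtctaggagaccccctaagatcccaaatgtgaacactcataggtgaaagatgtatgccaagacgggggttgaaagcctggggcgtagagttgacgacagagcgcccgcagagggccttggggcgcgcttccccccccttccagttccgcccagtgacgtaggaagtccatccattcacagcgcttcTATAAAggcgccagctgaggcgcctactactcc
Dusp1, chr17:26508473-26508722, minus strand: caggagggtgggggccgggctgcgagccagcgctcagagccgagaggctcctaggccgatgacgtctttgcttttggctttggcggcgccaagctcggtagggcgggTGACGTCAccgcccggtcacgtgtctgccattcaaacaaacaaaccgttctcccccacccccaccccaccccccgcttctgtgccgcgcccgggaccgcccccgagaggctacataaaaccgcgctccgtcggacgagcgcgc
Ier3, chr17:35821463-35821712, plus strand: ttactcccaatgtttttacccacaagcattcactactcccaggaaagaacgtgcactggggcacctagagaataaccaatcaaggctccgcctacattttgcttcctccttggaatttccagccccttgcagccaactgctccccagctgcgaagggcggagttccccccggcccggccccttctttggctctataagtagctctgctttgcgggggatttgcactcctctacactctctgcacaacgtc

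Before normalization, the 75th percentile of the median signal lay between 248.5 and 490 over the arrays, and no spot was saturated. The fewest probes well above background were on the arrays of L47 (26479) and L21 (27301), both WT E2+Pg, and the most on an array were 31266. The LC marker Krt8 was at 16.46 to 17.80 (log2 signal). Over all genes, 5 arrays correlated least with the other mice of their group: L18 (C451A-ERα E2+Pg, r = 0.967), L4 (C451A-ERα E2, r = 0.974), L21 (WT E2+Pg, r = 0.978), L27 (C451A-ERα E2, r = 0.980) and L72 (WT E2, r = 0.980). The 4 lowest levels of Krt8 were in 4 of these mice: L4 (16.46), L18 (16.72), L21 (17.23) and L27 (17.25). L18 and L21 had the highest levels of Elf5, a transcription factor of luminal progenitors (13.77 and 13.56, against 10.61 to 12.64 in the other mice). The 8 immune markers lay on average 1.13 log2 units above their mean in L21, against -0.60 to 0.49 in the other mice, while Ptprc (CD45) was at 8.91 in L21, within the 8.13 to 10.57 of all mice. Of the marker lists of cell types, no gene was called between genotypes under E2+Pg or under E2, against 0.00484% and 0.029% of all genes. With so few genes called, these counts cannot show whether the make-up of the samples differed. In C451A-ERα, progesterone lowered the luminal markers Foxa1 (-1.19, adjusted p = 0.0135) and Pgr (-0.99, adjusted p = 0.036), where 2.46% of all genes were called. Averaged over genotypes, where 3.83% of all genes were called, progesterone also lowered Esr1 (-0.99, adjusted p = 0.0148), Prlr (-0.73, 0.0499) and the basal keratin Krt5 (-2.29, 0.00734). Results that rest on the 5 mice are given with and without them, and the part of other cells in them was not tested. In such bulk samples, fewer cells of a type and less RNA per cell cannot be told apart.

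No immediate early gene passed the threshold (limma, adjusted p under 0.05 over all genes and a fold change above 1.5) in any of the 7 comparisons tested. The levels nevertheless differed widely between mice of the same group. The within-group SD of Fosl1 was 1.07 on the log2 scale, at the 98.7th percentile of all genes, that of Fosb was 0.74 and that of Fos 0.66. The SDs of Jun and Ier2 (0.27 each) lay below the median of all genes, 0.30, as did that of Junb (0.29), and 7 of the 10 genes lay above it.

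**Figure D1:**
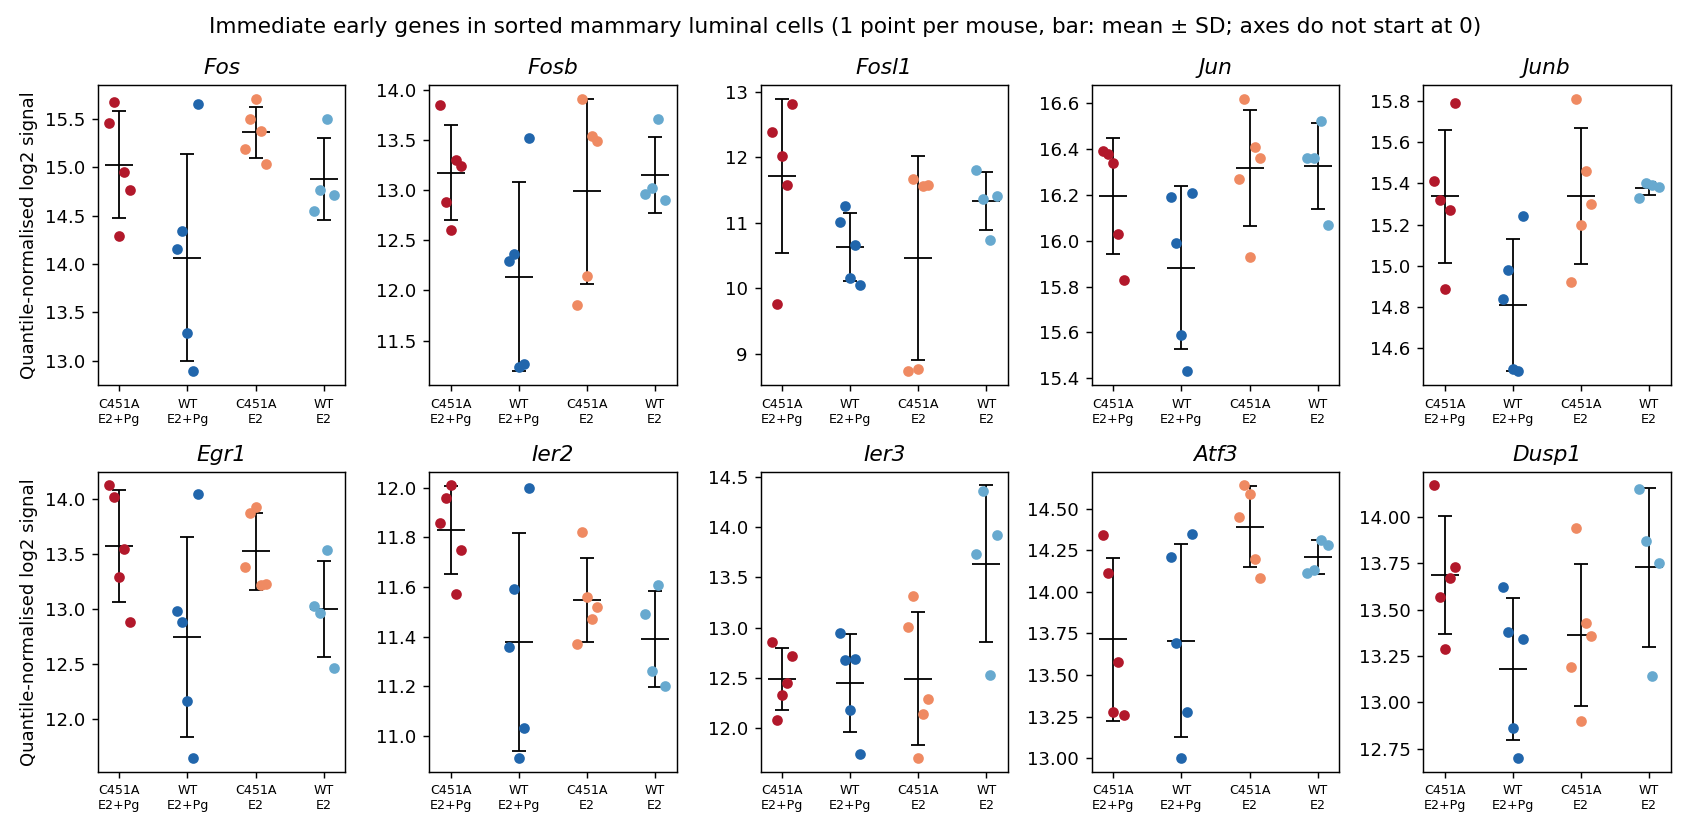
Quantile-normalised log2 signal (vertical axes, which do not start at 0) of each gene in C451A-ERα and WT mice under E2+Pg and under E2. Points are mice and bars the mean ± SD. In WT E2+Pg, Fos spread between 12.89 and 15.65, and the 2 lowest Fosl1 values, 8.73 and 8.77, were both in C451A-ERα E2.

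Under E2+Pg, the 10 genes all had a positive log2 fold change in C451A-ERα against WT LCs, with a median of 0.51, while the median of all genes was -0.028 and 46.5% of genes were positive. None was called, against 0.00484% of all genes. At an unadjusted p under 0.05, 6 of the 10 were higher (Fos, Fosb, Junb, Egr1, Ier2 and Dusp1), against 7.97% of all genes higher at that p. The genes are not independent of each other, as the values per mouse show.

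Fos was at 15.46, 15.67, 14.29, 14.95 and 14.76 in C451A-ERα E2+Pg mice, against 14.15, 14.34, 13.29, 12.89 and 15.65 in WT E2+Pg mice (L57, L62, L44, L47 and L21). The groups overlapped through L21, whose level was close to the highest of the C451A-ERα mice, while L44 and L47 were the lowest of all 19 mice. The log2 fold change was 0.96 ± 0.39 (SE), a 1.95-fold higher level, with adjusted p = 0.226, and the exact permutation test gave p = 0.127 (two-sided). On slides, each of which held 1 mouse of both groups, Fos was higher in C451A-ERα on 4 of 5, the difference between mice of a slide running from -0.90 to 2.06. Egr1, a zinc finger transcription factor, showed the same arrangement of mice. It was at 14.12, 14.01, 13.29, 13.54 and 12.88 in C451A-ERα E2+Pg, against 12.98, 12.88, 12.16, 11.64 and 14.04 in WT E2+Pg, with a log2 fold change of 0.83 ± 0.35 (SE, adjusted p = 0.242). L21 was again high and L44 and L47 low.

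Among the other AP-1 subunits, Junb gave the smallest p. Its level was 15.41, 15.32, 14.89, 15.27 and 15.79 in C451A-ERα E2+Pg, against 14.84, 14.98, 14.50, 14.49 and 15.24 in WT E2+Pg. Junb was higher in C451A-ERα on 5 of 5 slides, by 0.34 to 0.78, although the groups overlapped. The log2 fold change was 0.53 ± 0.18 (SE), a 1.44-fold higher level below the fold threshold, with adjusted p = 0.189, and the exact permutation test gave p = 0.0397. Fosb averaged 13.17 ± 0.47 in C451A-ERα E2+Pg and 12.14 ± 0.94 in WT E2+Pg (SD, n = 5 each), a log2 fold change of 1.04 with adjusted p = 0.235. Fosl1, the subunit also called Fra-1, had the largest fold change, 1.08 ± 0.62 (SE), and the widest interval of the 10 (95%, -0.22 to 2.38). Jun differed by 0.31 (adjusted p = 0.315).

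Of the remaining genes, Dusp1 was higher in C451A-ERα on 5 of 5 slides, by 0.19 to 0.97, with a log2 fold change of 0.50 ± 0.23 (SE, adjusted p = 0.256). Ier2, a small nuclear protein, differed by 0.45 ± 0.17 (SE, adjusted p = 0.211). Ier3, a regulator of survival and of ERK signalling, and Atf3, a stress-induced repressor, had differences near 0: 0.04 (95% interval -0.67 to 0.75) for Ier3 and 0.01 (95% interval -0.51 to 0.53) for Atf3. The sign of both turned under other scalings.

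**Figure D2:**
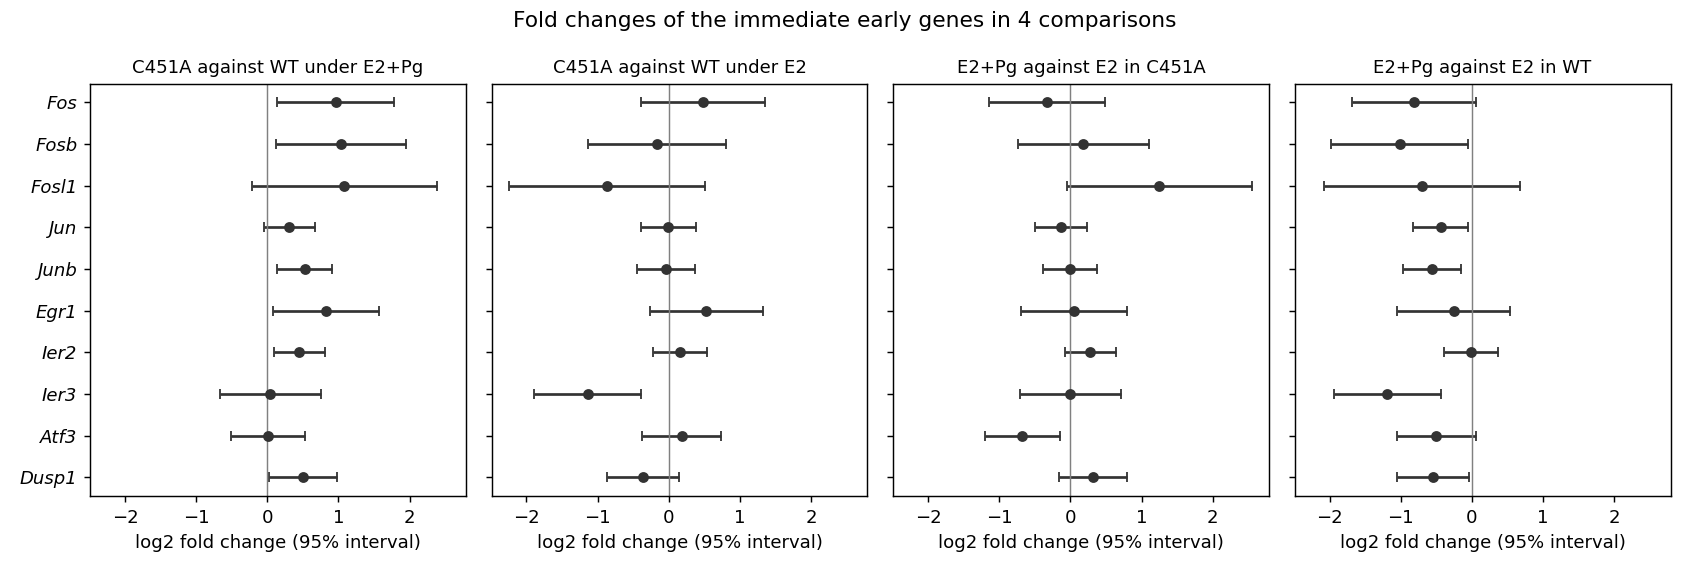
Log2 fold change (horizontal axis) with its 95% interval for each gene, in C451A-ERα against WT under E2+Pg and under E2 and in E2+Pg against E2 in C451A-ERα and in WT. Under E2+Pg all 10 points lie right of 0 (0.01 to 1.08), and in WT all 10 lie left of 0 (-1.19 to -0.01).

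These differences depended on a few mice. Without L21 (WT E2+Pg), the log2 fold change of Fos was 1.36 with adjusted p = 0.0435, which made 1 of the 10 genes called, against 1.12% of all genes. With each mouse left out in turn, the log2 fold change of Fos lay between 0.67 and 1.36 and that of Egr1 between 0.55 and 1.15. Without the 5 mice that stood apart, a choice made after seeing the data, 5 were called as higher in C451A-ERα: Fos (1.20, adjusted p = 0.0159), Fosb (1.46, 0.0052), Fosl1 (1.43, 0.00336), Junb (0.64, 0.027) and Egr1 (1.04, 0.0336). In that fit 14% of all genes were called, and leaving out the mice farthest from their group lowers the spread by construction.

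Under E2 alone, the 10 genes had no common direction in C451A-ERα against WT LCs: 4 had a positive and 6 a negative log2 fold change, with a median of -0.02 (all genes, 0.028). None was called, against 0.029% of all genes, and 1, Ier3, had an unadjusted p under 0.05, against 13.6% of all genes in either direction. Ier3 was at 13.01, 13.32, 11.70, 12.14 and 12.29 in C451A-ERα E2, against 13.73, 14.36, 12.53 and 13.92 in WT E2. The groups overlapped through L72, the lowest of the WT E2 mice. Ier3 was lower in C451A-ERα on 4 of 4 slides, with differences of -1.63 to -0.39. The log2 fold change was -1.14 ± 0.36 (SE), a 2.21-fold lower level, with adjusted p = 0.165 and an exact permutation p of 0.0635. Without L72 it was -1.51 with adjusted p = 0.0126, where 5.05% of all genes were called, and without all 5 mice that stood apart -1.42 with adjusted p = 0.00615, where 9.78% were.

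Fosl1 showed how much a pair of mice can carry. In C451A-ERα E2 it was at 8.73 (L4), 11.66, 8.77 (L27), 11.56 and 11.58, against 11.81, 11.36, 10.73 and 11.41 in WT E2. L4 and L27 lay far below the other C451A-ERα E2 mice, which were within the WT range. The log2 fold change was -0.87 ± 0.66 (SE, adjusted p = 0.603), and without the 5 mice that stood apart it was 0.07. Fosb was also low in L4 and L27 (11.86 and 12.14) against 13.49 to 13.91 in the other C451A-ERα E2 mice, and its log2 fold change was -0.16 with all mice and 0.69 without the 5. Fos and Egr1 were not low in those 2 mice: L27 had the highest Fos of all mice, 15.71. Fos averaged 15.36 ± 0.27 in C451A-ERα E2 (SD, n = 5) and 14.88 ± 0.42 in WT E2 (SD, n = 4), a log2 fold change of 0.48 with adjusted p = 0.657.

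The next question was what progesterone changed within each genotype. In WT LCs, all 10 log2 fold changes of E2+Pg against E2 were negative, with a median of -0.55 (all genes, 0.043, with 44.4% of genes negative). None was called, against 1.33% of all genes, and 5 had an unadjusted p under 0.05 (Fosb, Jun, Junb, Ier3 and Dusp1, all lower), against 6.75% of all genes lower at that p. The WT E2+Pg mice also entered the comparison with C451A-ERα E2+Pg, so the 2 sets of values are not separate evidence. Ier3 was at 12.95, 12.68, 12.18, 12.69 and 11.74 in WT E2+Pg, against 13.73, 14.36, 12.53 and 13.92 in WT E2. Its log2 fold change of -1.19 ± 0.36 (SE) was a 2.28-fold lower level, with adjusted p = 0.102 and an exact permutation p of 0.0476, and without L72 it was -1.55 with adjusted p = 0.0148, where 2.79% of all genes were called. The basal keratin Krt5 moved in the same comparison: it averaged 8.62 ± 0.74 in WT E2+Pg (SD, n = 5) and 11.29 ± 0.59 in WT E2 (SD, n = 4), a log2 fold change of -2.67 with adjusted p = 0.0682 by limma. Over the 8 basal markers the median was -0.21, with 0 called. The part of basal cells in these differences was not tested.

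Junb was the only one of the 10 whose WT groups did not overlap. It was at 14.84, 14.98, 14.50, 14.49 and 15.24 in WT E2+Pg, against 15.33, 15.40, 15.39 and 15.38 in WT E2, and such a gap was found in 8.68% of all genes. Its log2 fold change was -0.56 ± 0.19 (SE), with adjusted p = 0.148 and an exact permutation p of 0.0159, where 0.00794 is the smallest the design allows. The WT E2 mice lay within 0.07 of each other. Fosb and Dusp1 had log2 fold changes of -1.01 and -0.55 (adjusted p = 0.289 and 0.274), and Fos one of -0.82 (adjusted p = 0.338). Without the 5 mice that stood apart, Fosb (-1.17, adjusted p = 0.0414) and Ier3 (-1.38, 0.0102) were called, where 5.37% of all genes were.

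In C451A-ERα LCs, 5 of the 10 genes had a positive and 5 a negative log2 fold change with progesterone (median 0.02, all genes 0.002). None was called, against 2.46% of all genes, and Atf3 alone had an unadjusted p under 0.05, against 9.79% of all genes lower at that p. It was at 14.34, 14.11, 13.28, 13.58 and 13.26 in C451A-ERα E2+Pg, against 14.45, 14.64, 14.59, 14.20 and 14.08 in C451A-ERα E2, and was lower with progesterone on 5 of 5 slides. The log2 fold change was -0.68 ± 0.25 (SE, adjusted p = 0.145, exact permutation p = 0.0397). In WT LCs Atf3 had a log2 fold change of -0.50, and averaged over both genotypes -0.59 ± 0.18 (SE, adjusted p = 0.0553), the smallest adjusted p of any of the 10 genes in any comparison. In that averaged contrast none of the 10 was called, against 3.83% of all genes. An unadjusted p under 0.05 was found for 4 (Jun, Junb, Ier3 and Atf3, all lower), against 9.25% of all genes lower at that p. The value of Atf3 crossed the threshold in the authors' value table (adjusted p = 0.0368) and with probes above background on all arrays (0.0451). The largest log2 fold change was that of Fosl1, 1.25 ± 0.62 (SE, adjusted p = 0.293), higher with progesterone on 4 of 5 slides. Over the other settings it lay between 0.55 and 1.74. Ier2 was higher with progesterone in C451A-ERα on 5 of 5 slides, by 0.10 to 0.49, with a log2 fold change of 0.28 and adjusted p = 0.409. The second probe of Ier2 gave -0.21 in this comparison.

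The effect of genotype was not shown to differ between treatments for any of the 10 genes. The interaction had adjusted p-values of 0.471 to 0.822, and 0% of all genes were called. Without the 5 mice that stood apart, 0 of the 10 were called, against 0.208% of all genes. At an unadjusted p under 0.05, 4 of the 10 had a positive interaction (Fosl1, 1.95; Junb, 0.56; Ier3, 1.18; Dusp1, 0.87), against 3.83% of all genes positive at that p. Averaged over both treatments, the genotype contrast called none, against 2.29% of all genes, and 4 had an unadjusted p under 0.05 (Fos, Egr1, Ier2 and Ier3), against 18.3% of all genes. It gave Egr1 0.68 (adjusted p = 0.16), Fos 0.72 (0.174) and Ier3 -0.55 (0.238).

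Within groups, most of the genes varied together from mouse to mouse. After removal of the group means, the 45 pairs of genes had a median Pearson r of 0.50 over 19 mice, and 37 pairs were positive. Pairs of all other genes were not computed, so this is not shown to be particular to these genes. With Fos, 9 relations were computed by permutation of mice within groups. Egr1 was closest (r = 0.92, Spearman rho = 0.88, permutation p = 6e-05, adjusted 0.00054), then Atf3 (r = 0.82, rho = 0.85, permutation p = 0.00103, adjusted 0.00463). Ier2 (r = 0.75, adjusted permutation p = 0.0196, rho = 0.65, adjusted 0.0397) and Fosb (r = 0.65, adjusted permutation p = 0.0196, rho = 0.57, adjusted 0.0423) followed. Junb passed by r alone (r = 0.59, adjusted permutation p = 0.0296, rho = 0.53, adjusted 0.0576) and Jun by rho alone (r = 0.58, adjusted permutation p = 0.057, rho = 0.63, adjusted 0.0397). Dusp1 (r = 0.27, rho = 0.27), Fosl1 (r = -0.27, rho = -0.26) and Ier3 (r = -0.38, rho = -0.26) did not pass, with adjusted permutation p-values of 0.335, 0.158 and 0.111 for r and 0.304 for each rho. Without L21 and L47, the mice farthest from the median of Fos, r was 0.82 for Egr1 and 0.80 for Atf3, but 0.51 for Ier2, 0.41 for Fosb and 0.39 for Junb, and 2 of the 9 relations kept an adjusted p under 0.05. Without the 5 mice that stood apart, which include L21, r was 0.96 for Fosb, 0.86 for Dusp1, 0.82 for Egr1, 0.81 for Atf3, 0.66 for Junb, 0.64 for Jun, 0.47 for Ier2, 0.46 for Ier3 and 0.42 for Fosl1. The relations of Fos with Egr1 and Atf3 were thus high in each of these sets of mice, while the r of the other genes depended on which mice were left out, and that of Ier3 and Fosl1 turned sign. With slide means removed too, r was 0.96 for Egr1, 0.87 for Atf3, 0.73 for Ier2, 0.62 for Fosb, 0.57 for Jun and 0.51 for Junb. It was 0.05 for Dusp1, -0.42 for Fosl1 and -0.77 for Ier3.

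**Figure D3:**
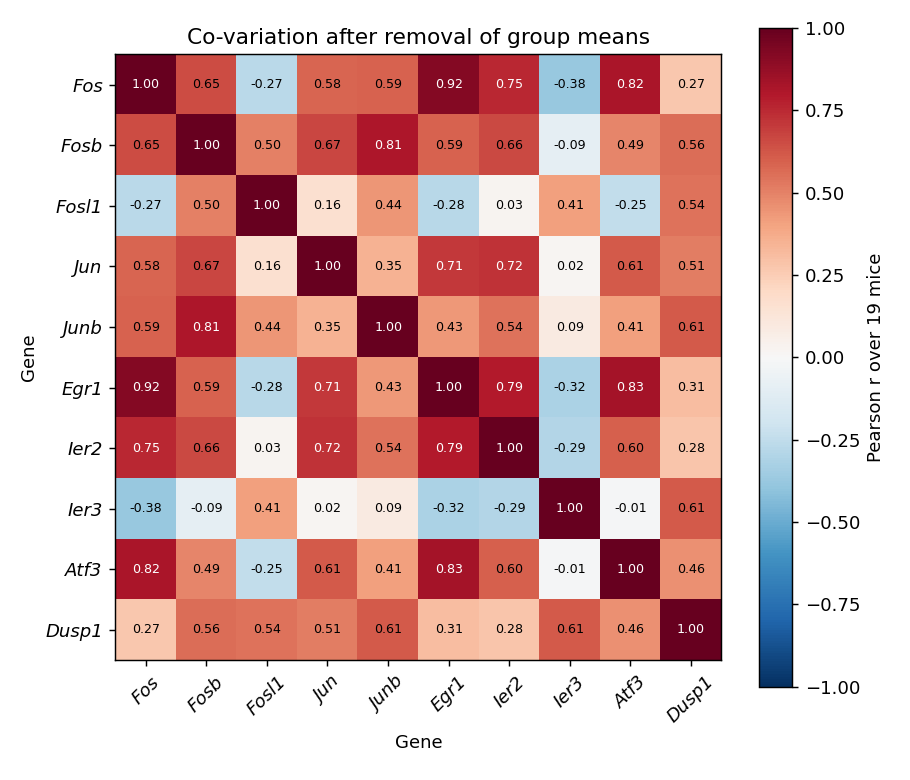
Pearson r between each pair of the 10 genes over 19 mice, after removal of the 4 group means (colour scale from -1 to 1, values printed in the cells). Fos, Egr1 and Atf3 form the closest block (Fos with Egr1, 0.92), and Ier3 and Fosl1 have negative r with Fos (-0.38 and -0.27).

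Hspa1a, an inducible chaperone that also rises during tissue dissociation, moved with Fos across mice. It had r = 0.91 with Fos (Spearman rho = 0.82, permutation p = 8e-05, adjusted 0.0002 over 5 relations chosen after seeing the data), 0.79 without L21 and L47, 0.75 without the 5 mice and 0.92 with slide means removed. The other genes of the heat shock list were not tested for this relation. Hspa1a was at 16.33 in L21, 16.06 in L18 and 16.05 in L27, the 3 mice with the highest Fos, and at 12.10 in L47 and 12.65 in L44, the mice with the lowest Fos. Between the groups, Hspa1a had a log2 fold change of 0.97 in C451A-ERα against WT under E2+Pg (adjusted p = 0.38), as large as that of Fos. Hspb1, another heat shock gene, averaged 17.04 ± 0.14 and 16.88 ± 0.22 in these groups (SD, n = 5 each). Of the 13 heat shock genes fixed as a list, 0 were called in that comparison, against 0.00484% of all genes. At an unadjusted p under 0.05 there were 0, against 18.3% of all genes in either direction, and the median of the list was 0.09. The part of dissociation in the differences of Fos was not tested. The relations of Fos with the brightness of the array (r = -0.16, permutation p = 0.635) and with the number of probes above background (r = 0.18, permutation p = 0.562) did not pass the test, but without the 5 mice r was 0.12 for brightness and 0.66 for the number of probes. The part of array quality was not tested further.

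Fosl1 moved against Elf5. The r was -0.85 (Spearman rho = -0.84, permutation p = 2e-05, adjusted 0.0001 over the same 5 relations), -0.79 without L18 and L4, the mice farthest from the median of Fosl1, and -0.73 without the 5 mice that stood apart. Fosl1 was at 9.76 in L18, against 11.58 to 12.81 in the other C451A-ERα E2+Pg mice, and at 10.05 in L21. The relation of Fos with Elf5 did not pass (r = 0.53, permutation p = 0.0503), and r was -0.32 without the 5 mice. The part of the make-up of the sorted LCs in the levels of Fosl1 was not tested.

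**Figure D4:**
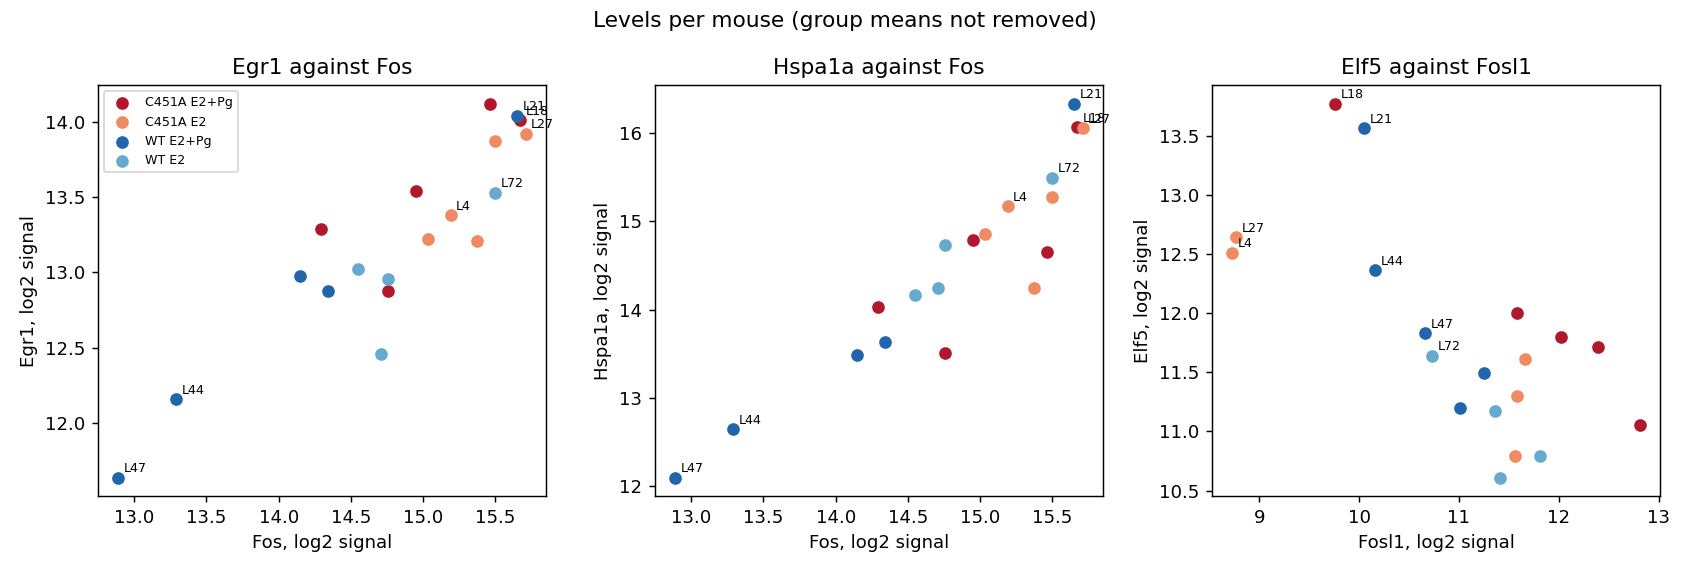
Log2 signal of Egr1 and of Hspa1a against Fos, and of Elf5 against Fosl1, 1 point per mouse, coloured by group, with the mice named in the text marked. Hspa1a runs between 12.10 in L47 and 16.33 in L21 along with Fos, and the mice with the highest Elf5, L18 (13.77) and L21 (13.56), are low in Fosl1 (9.76 and 10.05).

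Other early-response genes were taken as lists. Of 21 other early-response transcription factors, 0 were called in C451A-ERα against WT under E2+Pg, and 9 had an unadjusted p under 0.05, all higher (all genes, 7.97%), with a median log2 fold change of 0.49. Nr4a1, an orphan nuclear receptor, had 0.77 and Egr2 0.78 (adjusted p = 0.216 and 0.247). Klf6 differed less, averaging 15.90 ± 0.33 in C451A-ERα E2+Pg and 15.65 ± 0.40 in WT E2+Pg (SD, n = 5 each). Of 20 feedback inhibitors, 10 were higher at an unadjusted p under 0.05 (all genes, 7.97%) and 0 called, with Zfp36, which destabilises early-response mRNAs, at 0.74 (adjusted p = 0.206). Averaged over treatments, 3 of the 20 feedback inhibitors were called as higher in C451A-ERα, against 0.358% of all genes called higher. They were Zfp36l2 (0.82, adjusted p = 0.0204), the phosphatase Dusp4 (0.97, 0.0319) and the clock gene Per1 (0.90, 0.0461). Of the 10 AP-1 partners, 0 had an unadjusted p under 0.05 in C451A-ERα against WT under E2+Pg (all genes, 18.3% in either direction). Their median log2 fold change was 0.39, with Fosl2 at 0.42 and Jund at 0.24. Of 19 secreted and other early-response genes, 4 were higher at that p (all genes, 7.97%), with a median of 0.38. Under E2, 0 genes of these lists were called, against 0.029% of all genes. At an unadjusted p under 0.05, the secreted list had 4 lower and 0 higher there (median -0.62). The transcription factors had 3 lower and 0 higher (-0.14), the feedback inhibitors 3 and 3 (0.03) and the AP-1 partners 0 and 1 (-0.03). Of all genes, 6.57% were lower and 7.03% higher. With progesterone, 2.46% of all genes were called in C451A-ERα and 1.33% in WT, and a few genes of these lists passed the threshold. Ier5l was higher in C451A-ERα (0.67, adjusted p = 0.0342) and in WT (0.91, 0.0152), and Irf1, an interferon-response factor, was lower in WT (-0.98, 0.0287). In C451A-ERα, progesterone raised Thbs1, a matrix protein (1.78, adjusted p = 0.0031), Phlda1 (0.81, 0.0298) and Egfr, the receptor of the amphiregulin signal upstream of ERK (1.11, 0.0023), and lowered Elk3, a partner of the serum response factor (-0.94, 0.0425). In WT the log2 fold changes were 0.38 for Thbs1, 0.08 for Phlda1, -0.09 for Egfr and -0.63 for Elk3, none called. The interaction called none of these genes, and 0% of all genes, so an effect of progesterone that differs between genotypes was not shown for them. Averaged over genotypes, where 3.83% of all genes were called, progesterone lowered Irf1 (-0.83, adjusted p = 0.00186), Areg, the EGFR ligand amphiregulin (-1.29, 0.00595), Elk3 (-0.79, 0.0104), the phosphatase Dusp10 (by 1.99-fold, 0.0129), Bhlhe40 (-0.69, 0.0246), Gadd45g (-0.63, 0.0377) and the heat shock gene Dnajb4 (-0.63, 0.00517), and raised Ier5l (0.79, 0.000601) and Thbs1 (1.08, 0.00372).

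The genes whose profile over mice was most like the mean of the 10 were not early-response genes by the lists used. AK162036 and BC051646 (r = 0.90 each), Zcchc7 (0.89), Cpeb4 and Pisd-ps1 (0.88 each) and an unnamed transcript of chromosome 4 (0.88) led, over 19 mice after removal of the group means. AK162036 was well above background on 14 of the 19 arrays. Within the 10, Fosb was closest to their mean (r = 0.91) and Ier3 farthest (0.20). That mean includes the gene itself, so part of each r was fixed beforehand. These values are therefore not comparable to those of genes outside the 10.

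The genes with several probes were read by the brightest. The second probe of Fosb gave nearly the same fold changes (-0.99 for E2+Pg against E2 in WT, where the first gave -1.01, and r = 0.96 between them). The second Junb probe gave 0.30 in C451A-ERα against WT under E2+Pg, where the first gave 0.53 (r = 0.62), and the third never exceeded background clearly. The second Ier2 probe, which lies on a different transcript record, had r = 0.42 with the first. For E2+Pg against E2 it gave -0.72 in WT, where the first gave -0.01. In C451A-ERα it gave -0.21, where the first gave 0.28. The fold change of Ier2 with progesterone thus depends on the probe.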

How the data were processed

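LC RNA from 19 mice was hybridized to one-colour Agilent SurePrint G3 arrays. The deposited scanner files hold the median spot intensity, extracted by the authors with Agilent Feature Extraction 10.10.1.1 and not normalized. The authors also deposited a value table of log2 signal, corrected for washing bath and labelling series and quantile-normalized, used as an alternative. Here outlier spots (1370) and control spots were left out, the median intensity was log2 transformed and quantile-normalized, and genes were read by their brightest probe. A model of 4 group means was fitted with limma 3.58.1 (R 4.3.3) over 20671 genes, with Benjamini-Hochberg adjustment, and it was tested on simulated data. Washing bath and labelling series were not given in the labels. The 5 slides, of which 4 held every group, served as a block in an alternative. Correlations used 100000 permutations of mice within groups. All 10 genes were tested in every comparison, and the text gives values for only some of them in each. Of other lists, called genes (up to 4) were named, with preset examples in C451A-ERα against WT under E2+Pg, and the 6 genes most like the mean. The genes and lists were chosen with earlier results of these data known. Hspa1a, Elf5 and the comparison without 5 mice were chosen after seeing the data. Alternatives were other scalings, background corrections, filters, probe summaries, array weights, slide and each mouse left out. Mice of a group are separate animals, and their number limits the precision.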

Additional observations from a re-analysis of the deposited data

Results flagged for a closer look

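Of 40 groups of values (10 genes in 4 groups), 1 held a mouse far from the others by Dixon's test, where chance flags about 1 in 20 groups. Fosb was at 13.71 in L72, against 12.90 to 13.02 in the other WT E2 mice.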

How the results depend on the processing

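Over 31 other settings, single genes gave 2140 values. Of these, 2015 kept their direction and their side of the threshold, 44 were newly called and 81 turned sign, none of them called in the main setting. The labels carry no shared replicate numbers, so mice were not paired, and the slide was used as a block. The slide as a block called none of the 10 genes in any comparison.

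The number called under E2+Pg (C451A-ERα against WT) was 5 with array weights (12.7% of all genes) and 5 without the 5 mice that stood apart (14%, mice chosen after seeing the data), and 0 to 1 with each mouse left out. Under E2 it was 1 with array weights (10.8% of all genes), 1 without the 5 mice (9.78%) and 0 to 1 with each mouse left out. For E2+Pg against E2 in WT it was 4 with array weights (9.09% of all genes), 2 without the 5 mice (5.37%) and 0 to 1 with each mouse left out. Averaged over treatments it was 4 with array weights (12.5% of all genes), 5 without the 5 mice (13.7%) and 0 to 2 with each mouse left out. Averaged over genotypes it was 1 with array weights (5.68% of all genes), 1 in the authors' value table (4.29%), 1 with probes above background on all arrays (4.56%), 2 without the 5 mice (4.91%) and 0 to 2 with each mouse left out. The cause was not tested. Over all genes under E2+Pg, 2620 were called with array weights, 2895 without the 5 mice, 26 in the authors' value table and 1 in the main setting. Of the 9 relations with Fos, 5 had an adjusted p under 0.05, and 2 without the 2 mice farthest in Fos, where fewer mice entered, and 4 without the 5 mice that stood apart.

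The following log2 fold changes turned sign, with ranges for each mouse left out in turn. In C451A-ERα against WT under E2+Pg, Ier3 was -0.02 with the processed and with the median signal scaled to the 75th percentile, -0.03 without the 5 mice and -0.14 to 0.17 with each mouse left out, and Atf3 -0.06 with both scalings and -0.17 to 0.17 with each mouse left out. Under E2, Fosb was 0.03 with the slide block, 0.45 with array weights and 0.69 without the 5 mice (-0.39 to 0.12 by mouse), and Fosl1 0.07 without the 5 mice. Jun was 0.06 with the processed signal, 0.08 with the median signal, 0.04 with the slide block, 0.10 with array weights and 0.20 without the 5 mice (-0.09 to 0.09 by mouse). Junb was 0.04 with the slide block, 0.06 with array weights and 0.15 without the 5 mice (-0.16 to 0.07 by mouse). For E2+Pg against E2 in C451A-ERα, Fosb was -0.18 with array weights and -0.40 without the 5 mice (-0.10 to 0.41 by mouse), and Junb was 0.13 with the processed signal, 0.10 with the median signal, 0.03 with normexp and 0.09 with the mean of all probes (-0.11 to 0.12 by mouse). Egr1 was -0.09 to 0.22 by mouse. Ier3 was 0.03 with the processed signal, 0.02 with the median signal, 0.01 with normexp, 0.00 in the authors' value table, 0.12 with array weights and 0.01 without the 5 mice (-0.20 to 0.21 by mouse). In WT, Egr1 was -0.58 to 0.02 by mouse, and Ier2 was 0.06 with the processed and the median signal and 0.01 with the slide block (-0.17 to 0.11 by mouse). The Atf3 interaction was 0.12 with array weights. Averaged over treatments, Fosl1 was -0.04 to 0.35 and Dusp1 -0.03 to 0.14 by mouse. Averaged over genotypes, Egr1 was -0.27 to 0.03 by mouse, Fosl1 was -0.15 with array weights and -0.08 without the 5 mice, and Ier2 -0.17 with the mean of all probes.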
